A study of Rattus norvegicus with 60 samples.

Results

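The transcripts that changed between postnatal days 7 and 14 (P7 and P14) in the prefrontal cortex of LR rats are described here from 10 arrays, 5 at each age, of the 60 in the series. The arrays were chosen by their labels for line, region and age, and every difference is P14 minus P7 within the LR line. The series measured gene expression on 1-colour NimbleGen arrays in prefrontal cortex and amygdala of male rats, with 5 samples for each line, age (P7, P14 and P21) and region. HR and LR rats, known as high and low responders to novelty, are selectively bred lines on a Sprague-Dawley background, and the labels name no transgene and no treatment. The step was compared with that of HR prefrontal cortex at P7 and P14 (10 arrays), and levels in LR prefrontal cortex at P21 and in LR amygdala at P7 and P14 are given beside it with no test. The error of the fit was taken from all 30 prefrontal arrays, HR P21 included. The extraction protocol given for the prefrontal samples speaks of the amygdala. Their labels for source and brain region name the prefrontal cortex, and these were followed here. Each sample is a dissected tissue piece, so fewer cells of a type and less RNA per cell cannot be told apart. The files and labels do not say whether the 5 samples of a group came from separate litters. Some sample codes share their first part, such as those of arrays 26 and 28, both LR P7, and what a shared part means is not stated. Therefore the p-values here reflect only how far these samples spread, which may be technical in part.

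The second postnatal week is a period of rapid maturation in the rodent cortex. Most neurons have been born and have migrated, their axons and dendrites lengthen and form synapses, interneurons take on their adult neuropeptides and calcium-binding proteins, and oligodendrocytes start to wrap axons with myelin. Growing neurites rely on proteins that keep microtubules and actin dynamic, such as stathmin and GAP-43, while radial glia and their progeny hold lipid-binding proteins such as FABP7. In the adult prefrontal cortex, peptide-releasing interneurons are known for shaping the firing of the pyramidal cells that carry its output.

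Values are normalized intensities on a linear scale, and differences are given on the log2 scale with their standard error (SE, n = 5 arrays per age). A row of the array (a transcript) was called when its adjusted p from limma was under 0.05, with Benjamini-Hochberg adjustment over 18564 rows. Values by array are listed in order of array number, which is 26 to 30 at P7 and 16 to 20 at P14. The median intensity of a prefrontal array lay between 74.5 and 80.2, and the median row at 74.0. The files give no detection flags, so a row near that level may hold little signal.

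Markers of cortical layers and of other regions were read on the prefrontal arrays. No amygdala array was set beside them and calls compare ages, so these values do not test the region. Of 21 genes of cortical layers 16 were measured, and 4 of them lay below the median row at both ages. Crym, a marker of deep-layer neurons, had mean intensities of 9903 at P7 and 9654 at P14, and Fezf2, a transcription factor of layer 5 neurons, 331 and 329. No member of that list was called, nor was any of the 7 measured striatal genes or of the 9 measured genes of amygdala, thalamus and hypothalamus. The summed intensity of the latter list was 748 to 1025 on the P7 arrays and 762 to 998 on the P14 arrays.

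The LR arrays differed among themselves, and 2 of them stood apart. Array 29 (P7) lay at least 1 log2 unit above the other 4 P7 arrays in 204 rows and below them in 106, where the other P7 arrays did so in 40 to 53 and in 2 to 12 rows. Among those rows were Ttr (transthyretin, the main product of choroid plexus), Mobp (a myelin protein), Folr1 (a folate receptor of choroid plexus) and Pmch (a hypothalamic peptide precursor), which were singled out after their values were seen. Ttr read 1262, 985, 849.6, 23979 and 1463 at P7, so that array 29 was far above the others. Array 18 (P14) lay at least 1 log2 unit below the other 4 P14 arrays in 340 rows and above them in 164, against 12 to 19 and 26 to 64 rows on the other P14 arrays. The first component of the differences from group means held 27.8% of the within-group variance of all 30 prefrontal arrays. Its scores were taken from each array's difference from the mean of all 30 arrays, so they keep differences between ages. They were 2.21, 16.8, 65.1, -9.08 and 38.2 on the P14 arrays and -25.5 to -2.21 on the P7 arrays. Across rows the loadings of the component correlated with the P14 minus P7 difference (r = 0.56 across 18564 rows, which are not independent replicates), with its sign set to make r positive. As a covariate the score can take up part of the age difference. The part of that component in the results was not tested. All LR P14 arrays carry lower numbers than all LR P7 arrays, so age and place in the array numbering cannot be told apart within the line.

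**Figure D1:**
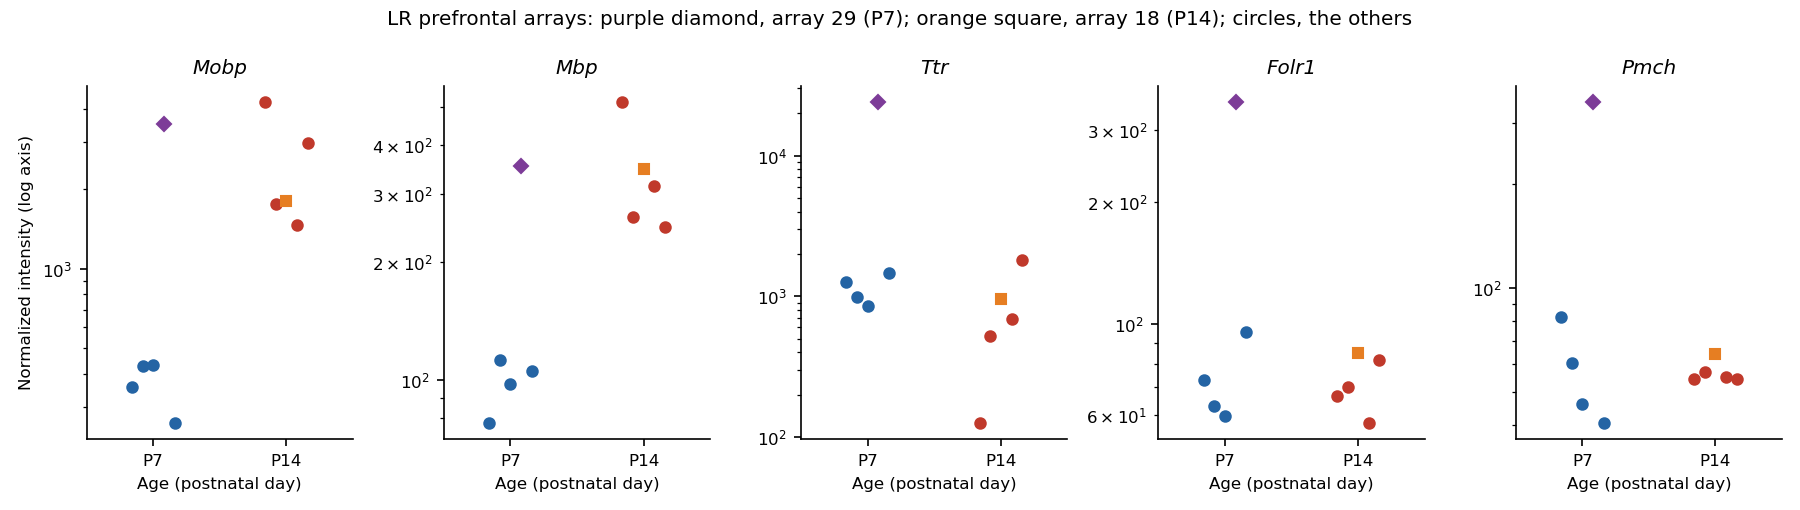
Normalized intensity (log axis) of 5 genes on the 10 LR prefrontal arrays, P7 on the left and P14 on the right of each panel; the purple diamond is array 29 and the orange square array 18. For Mobp and Mbp array 29 lies within the range of the P14 arrays, and for Ttr, Folr1 and Pmch it lies above all other LR arrays shown.

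Between P7 and P14, 223 of 18564 rows were called (1.2%), 109 higher at P14 (0.587%) and 114 lower (0.614%). Of these rows 166 carry a gene symbol and stand for 160 genes, and 57 carry a provisional locus name or none. The size of a called difference was at least 0.62, with a median of 1.46, and was 1 or more in 186 rows and 2 or more in 47. The median difference over all rows was 0.04. The 5 P14 values and the 5 P7 values did not overlap in 191 of the called rows, compared with 1299 (7%) of all rows, 621 higher (3.35%) and 678 lower (3.65%). With each array centred on its median, 78 rows were called higher and 143 lower. The fit took its error from all 30 prefrontal arrays, and the LR arrays varied less than the HR arrays, with a median row SD of 0.33 at P7 and 0.35 at P14 compared with 0.40 and 0.44. With the 10 LR arrays fitted alone, 1416 rows (7.63%) were called, 640 higher (3.45%) and 776 lower (4.18%), among them 222 of the 223. The count also depended on single arrays. It was 41 without array 18, 50 without array 20, 56 without array 30, 71 without array 26, 92 without array 27, 94 without array 28 and 135 without array 17. The sign of the difference was the same in all 223 rows when array 18 or array 29 was left out. In the 191 rows without overlap the loss of 1 array cannot change the sign, so the kept sign adds no support. With the arrays split into runs of 12 by number and the run as a block, 0 rows were called (747 at an unadjusted p under 0.05, smallest adjusted p 0.137), although 220 of the 223 kept their sign. All 5 LR P14 arrays lay in 1 run and all 5 LR P7 arrays in another, which held only 1 further prefrontal array, of HR P7, so that the block rested on that array. Of the 42 called rows that the rule for named genes selected, 15 kept the call in each of the 10 fits that left out 1 LR array, and 26 lost it without array 18. The largest rises and falls named below were picked from called rows without overlap, so their lack of overlap adds no support.

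**Figure D2:**
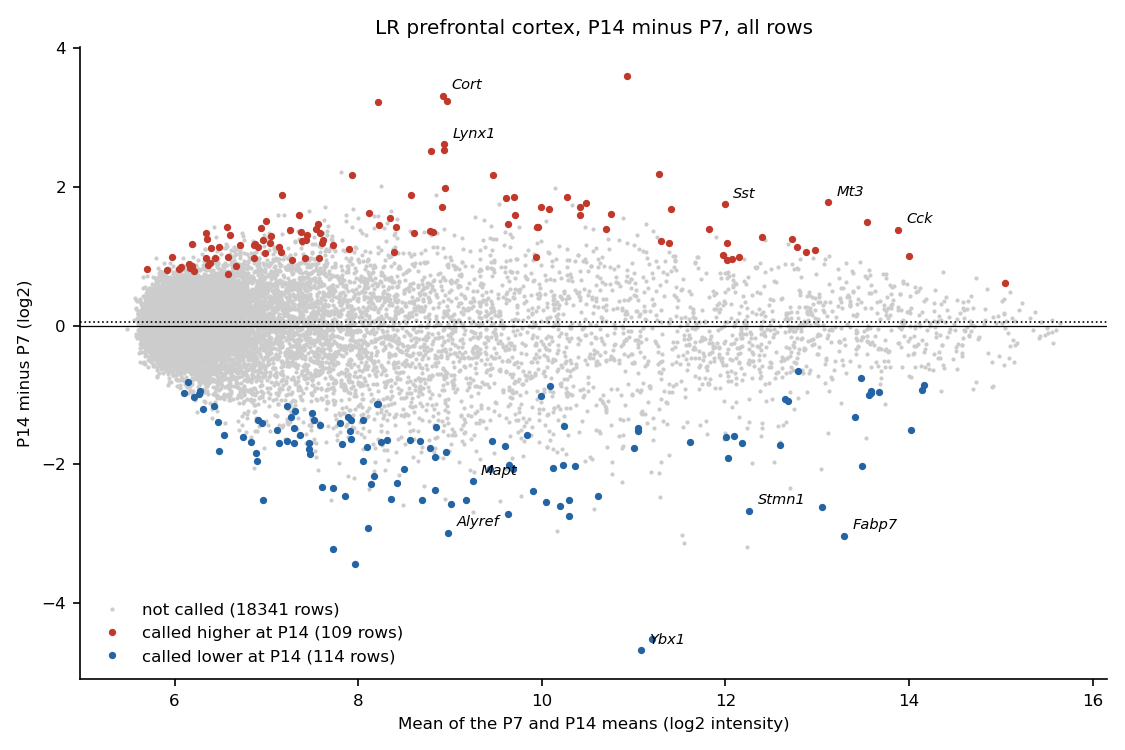
P14 minus P7 difference (log2) of every row in LR prefrontal cortex against the mean of its P7 and P14 means (log2 intensity); red points are the 109 rows called higher, blue points the 114 called lower, and the dotted line is the median of all rows (0.04). Called rows lie across a wide range of intensity, and the lowest point is Ybx1 at -4.69.

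Several neuropeptides of cortical interneurons were higher at P14. Among all rows with a gene symbol, called or not, the largest rise was that of Cort, which encodes cortistatin, a peptide related to somatostatin that a subset of cortical interneurons makes. Its intensity was 125, 178, 122, 236 and 133 on the P7 arrays and 2563, 747, 2792, 1371 and 1140.1 on the P14 arrays. The lowest P14 array read more than 3 times the highest P7 array, and the difference of 3.32 ± 0.44 corresponds to a 9.96-fold higher level (limma, adjusted p = 0.000123). Cartpt, the precursor of the peptide CART (cocaine- and amphetamine-regulated transcript), read 189, 75.0, 77.0, 771 and 134 at P7 and 1409, 1567, 2380.3, 1138 and 1422 at P14. Array 29 was the highest of the P7 arrays and still lay below all P14 arrays, and the difference was 3.24 ± 0.50 (adjusted p = 0.00115). Both genes kept their call whichever LR array was left out.

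Of 18 measured interneuron markers, 3 were called higher and 0 lower, against 0.587% of all rows called higher. The median difference of the 18 was 0.21, and 14 of them lay above 0. Without array 18 or array 29, 2 of the 18 were called higher. Sst, the precursor of somatostatin and marker of an interneuron class that targets dendrites, had intensities of 1642, 1828, 2178, 3286 and 2517 at P7 and 6827, 11639, 5549, 5368 and 10022 at P14. The groups did not overlap, and the difference of 1.76 ± 0.46 was close to the threshold (adjusted p = 0.0487). That call was lost without arrays 16, 17, 18, 20, 26, 27, 28, 29 or 30 (adjusted p 0.0529 to 0.138). Cck, the cholecystokinin precursor of basket cells and of some pyramidal cells, read 8315, 8472, 8721, 11342 and 10219 at P7 and 31697, 17896, 22149.9, 28892 and 23847 at P14. All P14 arrays were above all P7 arrays, by 1.39 ± 0.23 (adjusted p = 0.00332). Crh, corticotropin-releasing hormone, starts the hormonal stress response from the hypothalamus and is also made by cortical interneurons. Its intensities were 76.2, 115, 77.7, 66.5 and 94.1 at P7 and 191, 219, 229.6, 166 and 239 at P14, again without overlap and with a difference of 1.29 ± 0.23 (adjusted p = 0.00478). It was the only called member of the 16 measured genes of glucocorticoid signalling and stress peptides. Cck and Crh kept the call in all 10 fits that left out 1 array.

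The other interneuron markers did not pass the test. Pvalb, the calcium-binding parvalbumin of fast-spiking basket cells, differed by 1.41 ± 0.44 (adjusted p = 0.101), with mean intensities of 52.7 at P7, below the median row, and 141 at P14. Npy, neuropeptide Y, had a mean intensity of 12195 at P7 and 16673 at P14 (adjusted p = 0.295). Vip differed by 0.24, Reln by 0.45 and Lhx6, a transcription factor of interneurons from the medial ganglionic eminence, by 0.62. Calb2, the calretinin gene, had a difference of -0.67 ± 0.38 (adjusted p = 0.41).

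The start regions of the peptide genes are shown because CREB, the factor that answers cyclic AMP, is known for acting on peptide promoters through the letters TGACGTCA or the shorter TGACG. The windows are the 250 bases before the annotated gene start in RefSeq (rat assembly GRCr8), written 5′ to 3′ on the gene's strand, with matches to either motif on either strand in capitals.
Cort (chr5:164845125-164845374, minus strand): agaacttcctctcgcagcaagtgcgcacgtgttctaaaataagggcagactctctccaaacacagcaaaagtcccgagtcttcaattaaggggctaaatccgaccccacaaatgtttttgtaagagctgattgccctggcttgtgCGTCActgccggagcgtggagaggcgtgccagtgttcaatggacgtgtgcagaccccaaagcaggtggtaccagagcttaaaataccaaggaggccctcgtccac
Cartpt (chr2:32991236-32991485, minus strand): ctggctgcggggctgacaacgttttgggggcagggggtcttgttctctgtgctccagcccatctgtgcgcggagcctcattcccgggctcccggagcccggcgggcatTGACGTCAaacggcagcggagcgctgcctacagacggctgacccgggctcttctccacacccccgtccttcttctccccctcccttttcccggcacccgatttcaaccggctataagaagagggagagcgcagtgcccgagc
Sst (chr11:90461296-90461545, plus strand): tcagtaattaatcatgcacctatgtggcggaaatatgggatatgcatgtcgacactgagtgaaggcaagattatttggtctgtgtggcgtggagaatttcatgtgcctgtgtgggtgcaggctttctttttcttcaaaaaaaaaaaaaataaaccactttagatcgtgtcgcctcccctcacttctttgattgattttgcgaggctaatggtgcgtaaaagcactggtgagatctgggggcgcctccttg
The window of Cartpt held TGACGTCA, 142 bases before the start, and that of Cort held CGTCA, which is TGACG on the other strand, 105 bases before it. The window of Sst held no match to these letters. Only the 250 bases before each annotated start were searched, so a match after that start or further upstream would be missed. The empty Sst window therefore does not show that the gene lacks the motif. Of the called genes with a window, TGACGTCA was found in 1.82% of the 55 higher ones and 3.12% of the 64 lower ones, compared with 2.43% of 10683 genes on the array and 1.7% of all 27457 windows. TGACG was found in 20%, 20.3%, 24.6% and 19% of the same sets, and every window with TGACGTCA counts here too. The median GC content was 60% in the higher and 60.2% in the lower genes, compared with 58% on the array. The letters CCAAT, a common promoter motif, stood in 32.7% of the higher and 46.9% of the lower genes, compared with 35.3% on the array, both strands searched. Such a match describes the letters and no factor's binding.

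Lynx1, Lin7b, Tesc and Tnnc2 were also among the largest rises, while 0 of the 22 measured genes of the synaptic vesicle and postsynaptic list were called. Of those 22 differences 13 lay above 0, with a median of 0.02. With the LR arrays alone 1 was called higher and 3 lower, against 3.45% and 4.18% of all rows. The summed intensity of the list was 6357 to 9430 on the P7 arrays and 3253 to 5477 on the P14 arrays. Lynx1 encodes a membrane-anchored protein that dampens nicotinic acetylcholine receptors and is known from mouse visual cortex as a brake on plasticity. It read 146, 96.1, 167, 594 and 219.6 at P7 and 1458, 1194, 1149, 1074 and 1220.3 at P14. Array 29 was the highest at P7 and lay below every P14 array, and the difference was 2.61 ± 0.40 (adjusted p = 0.00114). Lin7b, a scaffold protein of synaptic membranes, read 1018, 1174, 1061, 3309.9 and 1884 at P7 and 6702, 3962, 4614, 5446 and 4099 at P14, with no overlap and a difference of 1.69 ± 0.30 (adjusted p = 0.00478). Tesc, the calcium-binding protein tescalcin, ranged 164 to 503 at P7 and 672 to 1497 at P14, a rise of 1.99 ± 0.38 (adjusted p = 0.00733), and another row of the gene, whose groups overlapped, rose by 2.52 (adjusted p = 0.00478). Tnnc2, the calcium-binding troponin subunit of fast skeletal muscle, read 102, 61.8, 84.0, 356 and 46.8 at P7 and 2752, 481, 534, 1159.8 and 749 at P14. The groups did not overlap, and the difference of 3.22 ± 0.71 (adjusted p = 0.022) had the widest SE of the 15 rises named for their size. The call of Tnnc2 was lost without arrays 16, 20, 26, 27, 28 or 30 (adjusted p 0.0511 to 0.0724), while those of Lynx1, Lin7b and Tesc were kept in all 10 such fits.

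Several genes of the mitochondrial respiratory chain rose. Cox17, a chaperone that delivers copper to cytochrome c oxidase, read 974, 1176, 1016, 1237 and 1494 at P7 and 5557, 4470, 7276, 4647 and 4889.5 at P14. The ranges lay well apart, and the difference was 2.18 ± 0.32 (adjusted p = 0.000674). Cox6a2, a subunit of the same enzyme best known from muscle and heart and, in mouse brain, from fast-spiking interneurons, ranged 62.7 to 102 at P7 and 115 to 435 at P14, a rise of 1.89 ± 0.34 (adjusted p = 0.00553). Uqcc5, an assembly factor of complex III, rose by 1.85 ± 0.40 (adjusted p = 0.018), a call lost without arrays 18, 20, 26, 27 or 30 (adjusted p 0.0506 to 0.0819). Of the 30 measured genes of the oxidative phosphorylation list 2 were called higher and 0 lower, against 0.587% of all rows called higher. Above 0 lay 16 of the differences, and the median of the 30 was 0.08. With the LR arrays alone 4 were called higher and 4 lower, against 3.45% and 4.18% of all rows. Without array 18 the number called was 0. Atp5po, a stalk subunit of ATP synthase, read 4068, 3597, 3463, 6454 and 4955 at P7 and 9383, 8239, 15003, 9560 and 10865 at P14 and rose by 1.24 ± 0.30 (adjusted p = 0.0324). Ndufb9, a subunit of complex I, ranged 2848 to 3478 at P7 and 5723 to 7796 at P14, a rise of 0.99 ± 0.21 (adjusted p = 0.0158). The call of Atp5po was lost without arrays 18, 20, 26, 27, 28 or 30 (adjusted p 0.0597 to 0.134), and that of Ndufb9 was lost without array 18 (adjusted p 0.051). Among members with differences of the other sign, Atp5f1a, a catalytic-core subunit of ATP synthase, differed by -1.31 and did not pass the test. None of the 27 genes of sugar breakdown (glycolysis and tricarboxylic acid cycle) was called, and their median difference was -0.41, against 0.04 over all rows, and 0.16 once the component score entered as a covariate.

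The remaining large rises were of mixed function. Mt3, the zinc-binding metallothionein of brain, read 4063, 3515, 5022, 7103 and 5018 at P7 and 18734, 10535, 21462, 15707 and 18504 at P14, a difference of 1.78 ± 0.32 (adjusted p = 0.00478) without overlap. Cxcl14, a chemokine, ranged 565 to 1379 at P7 and 1890 to 3416 at P14, a rise of 1.77 ± 0.36 (adjusted p = 0.0131) and a call lost without array 18 (adjusted p 0.0624). Ifi27l2b, a member of an interferon-inducible family, rose by 2.17 ± 0.53 (adjusted p = 0.0351), a call lost without arrays 16, 17, 18, 19, 20, 26, 27, 28 or 30 (adjusted p 0.0514 to 0.114). Or6c6h, annotated as an olfactory receptor, ranged 159 to 272 at P7 and 305 to 1218 at P14, a rise of 1.88 ± 0.33 (adjusted p = 0.00478) that was kept in all 10 fits without 1 array, as was that of Mt3. Ahsp, which stabilises free alpha-haemoglobin in red blood cell precursors, read 570.4, 495, 388, 803 and 634 at P7 and 1518, 1586, 3576, 1390.2 and 1750.4 at P14 and rose by 1.71 ± 0.38 (adjusted p = 0.0217). Array 18 was the highest, and the call of Ahsp was lost without arrays 18, 20, 26, 27, 28 or 30 (adjusted p 0.0506 to 0.109). It was the only called member of 7 measured blood genes, whose summed intensity ranged from 47986 to 73186 on the P7 arrays and from 38811 to 103083 on the P14 arrays. The part of blood in this rise was not tested.

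**Figure D3:**
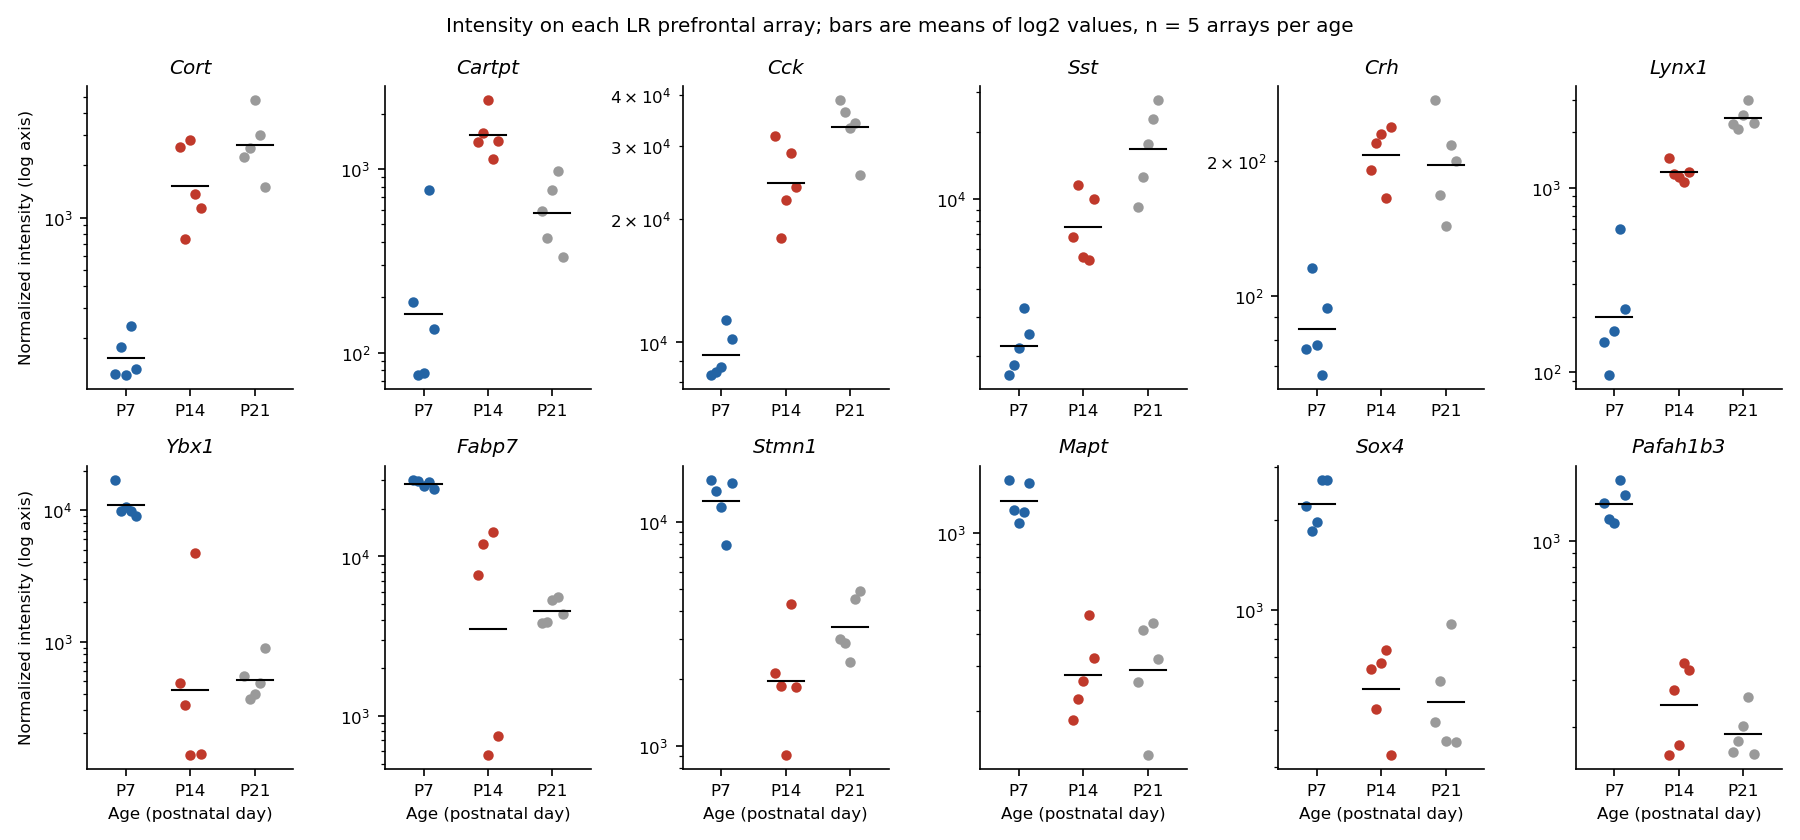
Normalized intensity (log axis) of 12 named genes on each of the 5 LR prefrontal arrays at P7 (blue), P14 (red) and P21 (grey); black bars are means of the log2 values. The P7 and P14 arrays do not overlap in any of the 12 panels, which was a condition for those named by the size of their change. The P14 values of Ybx1 and Fabp7 spread more widely than their P7 values.

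Stmn1 and Sox4, of the genes of growing and immature neurons, were lower at P14. Of 26 measured genes of this list 2 were called lower and 0 higher, against 0.614% of all rows called lower, 17 of the differences lay below 0 and their median was -0.27. With the LR arrays fitted alone 8 were called lower, against 4.18% of all rows. In the fit of all groups the number was 1 without array 29 and 0 without array 18. Stmn1, which encodes the microtubule-destabilising protein stathmin, read 15436, 13737, 11650, 7874 and 14952 at P7 and 2108, 1859.6, 909, 4280.1 and 1825 at P14. All P14 arrays were below all P7 arrays, with a difference of -2.67 ± 0.55 (adjusted p = 0.0131), a call lost without array 18 (adjusted p 0.0694). Sox4, a transcription factor of newly formed neurons, read 2224, 1838, 1969, 2716 and 2724 at P7 and 635, 468, 666, 738 and 328 at P14, with no overlap and a difference of -2.06 ± 0.49 (adjusted p = 0.0319). The call of Sox4 was lost without arrays 17, 18, 20, 26, 27, 28, 29 or 30 (adjusted p 0.0577 to 0.111), and another row of the gene differed by -0.45 and was not called. Gap43, the growth-associated protein of axon growth cones, read 1460.1, 1331, 1274, 687 and 1314 at P7 and 397, 159, 73.5, 713 and 113 at P14. Array 19 overlapped with array 29, and the difference of -2.51 ± 0.66 missed the threshold (adjusted p = 0.0512, and 0.00285 with the LR arrays alone). Tubb3, the neuron-specific beta-tubulin, differed by -1.97 ± 0.52 (adjusted p = 0.0518), whereas Dcx, doublecortin, had mean intensities of 69.6 and 65.8, near the median row.

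Mapt, the microtubule-binding protein tau, stood among 10 measured genes of neurofilaments and the mature axon and was the only one called. It read 1609.8, 1225, 1090.4, 1206 and 1564 at P7 and 185, 224, 263, 476 and 324 at P14. The P14 arrays lay below all P7 arrays, with a difference of -2.25 ± 0.43 (adjusted p = 0.00733), and the call was kept in all 10 fits that left out 1 array. The median of the 10 was 0.16, and Nefm and Nefh, neurofilament subunits, differed by 0.16 and 0.17 with intensities near the median row. Pafah1b3, a catalytic subunit of the brain enzyme that degrades platelet-activating factor, had the smallest p of the named falls. It read 1400.3, 1209, 1177, 1710.3 and 1497 at P7 and 156, 274, 170, 346 and 327 at P14, a difference of -2.52 ± 0.29 (adjusted p = 1.63e-05), and kept the call in all 10 such fits.

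The largest fall was that of Ybx1, a cold-shock-domain protein that binds RNA and DNA. A row of the gene read 17103, 9927, 10597, 9837 and 9064 at P7 and 481, 329.6, 136, 4729 and 139 at P14. Array 19 read far above the other P14 arrays and still lay below every P7 array, and the difference was -4.69 ± 0.84 (adjusted p = 0.00532). The other Ybx1 row fell by 4.53 (adjusted p = 0.00632), and the pseudogene Ybx1-ps9 differed by -2.62 ± 0.54 (adjusted p = 0.0131). These rows may share signal, since probes for near-identical copies cannot be told apart here. Both Ybx1 rows kept the call in every fit that left out 1 array, and that of Ybx1-ps9 was lost without arrays 18 or 20 (adjusted p 0.0556 to 0.0725).

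Fabp7, the brain lipid-binding protein of radial glia and young astrocytes, also fell, with a wide spread at P14. Its intensity was 30384, 29572, 27691, 29402 and 26549.9 at P7, a narrow range, and 7604, 11889, 564, 14164 and 739.9 at P14. Arrays 18 and 20 were far below the other 3 P14 arrays. The difference was -3.03 ± 0.67 (adjusted p = 0.0223), a call lost without arrays 18, 20, 26, 27 or 30 (adjusted p 0.0525 to 0.114).

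Alyref, Hnrnpd, Qdpr and Sumo4 were among the other large falls. Alyref, an adaptor for the export of mRNA from the nucleus, read 1373, 1429, 1327, 1439 and 1538 at P7 and 548, 277, 60, 127 and 159 at P14, a difference of -2.99 ± 0.69 (adjusted p = 0.0302). Hnrnpd, which binds AU-rich mRNA, ranged 829 to 1168 at P7 and 61.8 to 271 at P14 and fell by 2.52 (adjusted p = 0.0476). For both genes array 18 was the lowest P14 array. The call of Alyref was lost without arrays 18, 20, 26, 27, 28 or 30 (adjusted p 0.0577 to 0.129), and that of Hnrnpd was lost without arrays 16, 17, 18, 20, 26, 27, 28, 29 or 30 (adjusted p 0.0555 to 0.182). Qdpr, dihydropteridine reductase, which regenerates the cofactor of monoamine synthesis, read 809, 606, 773, 732 and 921 at P7 and 118, 153, 35.7, 269 and 59 at P14. The groups did not overlap, the difference was -2.92 ± 0.63 (adjusted p = 0.0185), and the call was lost without arrays 18, 20, 26 or 30 (adjusted p 0.0511 to 0.0976). The rows annotated as Sumo4, of the SUMO family of protein modifiers, fell by 2.58 (adjusted p = 0.018) and 2.52 (adjusted p = 0.0433), and signal of close copies may be shared between them. The former call was lost without arrays 18, 20 or 30 (adjusted p 0.0503 to 0.0938) and the latter was lost without arrays 17, 18, 20, 26, 27, 28, 29 or 30 (adjusted p 0.0583 to 0.167).

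Bex4, a small brain-expressed protein, ranged 2248 to 3727 at P7 and 194 to 1169 at P14 and fell by 2.61 (adjusted p = 0.015). Ppp4c, the catalytic subunit of protein phosphatase 4, fell by 2.51 (adjusted p = 0.0324), and the difference of Sh3kbp1, an adaptor in receptor endocytosis, was -2.50 ± 0.55 (adjusted p = 0.0217). The uncharacterised 6330403K07Rikl fell by 2.55 (adjusted p = 0.0127). In all 4 genes the P14 arrays lay below the P7 arrays, as the rule that picked them required. The call of Bex4 was lost without arrays 18, 20 or 30 (adjusted p 0.0506 to 0.076), that of Ppp4c was lost without arrays 17, 18, 20, 26, 27, 28, 29 or 30 (adjusted p 0.0568 to 0.115), that of Sh3kbp1 was lost without arrays 17, 18, 20, 26 or 30 (adjusted p 0.0522 to 0.091) and that of 6330403K07Rikl was lost without array 18 (adjusted p 0.0584).

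A few ribosomal protein genes fell. Of 30 measured members 4 were called lower and 0 higher, against 0.614% of all rows called lower. Below 0 lay 27 of the differences, and the median of the 30 was -0.46, against 0.04 over all rows. It was -0.23 once the component score entered as a covariate. With the LR arrays alone 11 were called lower, against 4.18% of all rows. Rplp0, of the ribosomal stalk, read 8962, 5979, 7316, 10004 and 10345 at P7 and 4299.7, 3449, 953, 4067 and 1939.7 at P14, a difference of -1.70 ± 0.40 (adjusted p = 0.0311). Rpl5, which carries 5S RNA into the ribosome, fell by 1.60 (adjusted p = 0.0421). Array 18 was the lowest P14 array in both genes. No ribosomal gene was called without array 18, and 1 was called without array 29. The call of Rplp0 was lost without arrays 18, 20, 26, 28, 29 or 30 (adjusted p 0.0574 to 0.138), and that of Rpl5 was lost without arrays 17, 18, 20, 26, 27, 28, 29 or 30 (adjusted p 0.0601 to 0.15). The summed intensity of the list was 496425 to 564253 on the P7 arrays and 340438 to 425970 on the P14 arrays, without overlap. Ribosomal proteins have many near-identical pseudogene copies, and their probes may share signal.

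Rbm3, an RNA-binding protein known for its induction by cold, stood in the list of thyroid hormone signalling and was its only called member of 9, although its known role is not in that pathway. It read 159, 180.2, 206, 202 and 284 at P7 and 102, 59.6, 63.9, 93.1 and 71.0 at P14, a difference of -1.41 ± 0.36 (adjusted p = 0.0457). That call was lost without arrays 17, 18, 20, 26, 27, 28, 29 or 30 (adjusted p 0.0713 to 0.138). Dio3, which inactivates thyroid hormone, differed by 0.97 ± 0.31 (adjusted p = 0.11). Hapln1, a link protein that anchors the proteoglycans of perineuronal nets, read 161, 146, 135, 115 and 151 at P7 and 234, 291, 525, 237 and 373 at P14. It rose by 1.17 ± 0.26 without overlap (adjusted p = 0.0256), a call lost without arrays 18, 20, 27, 28, 29 or 30 (adjusted p 0.0515 to 0.118). It was the only called member of 10 measured net components, and Bcan, the brevican core protein, differed by -0.52 ± 0.67 (adjusted p = 0.768).

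No gene of myelin was called by the rule of 1 row per gene, and array 29 moved with that result. Of 21 measured genes of oligodendrocytes and myelin 16 differences lay above 0, with a median of 0.14. Mobp, a myelin protein, read 359, 429, 432, 3499 and 262 at P7 and 4248, 1751, 1799.5, 1463 and 2970.2 at P14, so that array 29 overlapped with the P14 arrays while the other 4 lay below them. The difference was 1.98 ± 0.55 with all arrays (adjusted p = 0.0673) and 2.63 ± 0.48 without array 29 (adjusted p = 0.0056). Another row of Mobp differed by 1.14 ± 0.57 (adjusted p = 0.335). Without array 29 that row differed by 1.61 ± 0.56 and was still not called (adjusted p = 0.165). Mbp, myelin basic protein, has 4 rows. That with the highest mean differed by 1.37 ± 0.43 (adjusted p = 0.103), and by 1.74 ± 0.41 without array 29 (adjusted p = 0.0338). Another Mbp row was called higher with all arrays, by 1.46 ± 0.37 (adjusted p = 0.0457), although array 29 overlapped with the P14 values, and that call was lost without array 16, 18, 19, 20, 26, 27, 28 or 30 (highest adjusted p 0.14). The remaining Mbp rows differed by 1.65 ± 0.45 and 0.89 ± 0.40 (adjusted p = 0.0586 and 0.27). Without array 29 the former was called (adjusted p = 0.0176) and the latter was not (adjusted p = 0.143). Without array 29, 3 members of the list were called, Mobp and Mbp among them, and none of the 9 measured genes of oligodendrocyte precursors was called with or without it. On array 29 the summed intensity of the myelin list was 12881, compared with 2964 to 3685 on the other P7 arrays and 5688 to 11396 at P14, and that of 8 genes of choroid plexus and ependyma was 25317, compared with 1606 to 2269 and 1694 to 3381, with 0 of the 8 called. The part of other tissue on that array in these values was not tested.

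No gene of microglia or astrocytes was called. Of 12 measured microglial genes 10 lay above 0, with a median of 0.40, and 0 were called. C1qa, a chain of the complement component that tags synapses for removal, read 107, 108, 163, 423 and 136 at P7 and 591, 371, 509, 454 and 251 at P14, a difference of 1.38 ± 0.37 (adjusted p = 0.0595). Array 29 again lay among the P14 values, and without it 1 microglial gene was called. Tyrobp, a signalling adaptor of microglia, read 48.7, 69.2, 51.7, 78.8 and 61.7 at P7 and 168, 108, 84.6, 166 and 136 at P14, without overlap, and differed by 1.07 ± 0.31 (adjusted p = 0.0775). Of 19 measured astrocyte genes 12 differences lay above 0, with a median of 0.39 and a range of -1.44 to 1.76. With the LR arrays alone 2 were called higher and 1 lower, against 3.45% and 4.18% of all rows. S100b, a calcium-binding protein of astrocytes, differed by 1.76 ± 0.60 (adjusted p = 0.141). Sox9, a transcription factor of glia, differed by 1.25 ± 0.46 (adjusted p = 0.178), and Sparcl1, a secreted astrocyte protein, by -1.44 ± 0.72 (adjusted p = 0.334).

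Receptors and channels that are known for switching subunits at this age gave little signal. Of 10 pairs of an early and a late gene, 16 of the 20 genes were measured and 0 were called. Grin2a, the NMDA receptor subunit of older synapses, had mean intensities of 50.3 at P7 and 61.3 at P14, and Scn1a, a sodium channel, 87.2 and 84.2. These lie near or below the median row, where a change could go undetected. The chloride transporters Slc12a2 and Slc12a5 differed by -0.16 ± 0.27 and -0.46 ± 0.21 at equally low intensity. Nrgn, neurogranin of dendritic spines, read 165, 63.8, 70.4, 246 and 117 at P7 and 458, 483, 145, 508 and 262 at P14, a difference of 1.53 ± 0.66 (adjusted p = 0.251) with array 18 below 2 of the P7 arrays. The early tubulin Tubb2b and the late one Tubb4a had differences of the same sign, -1.38 ± 0.63 and -1.27 ± 0.35 (adjusted p = 0.285 and 0.0599).

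Calls were 0 in each of the lists of glutamate receptors (17 measured), GABA signalling (15), voltage-gated channels (23), synaptic vesicle and postsynaptic proteins (22), cell division (21), chromatin and DNA methylation (21), heat shock (15), cholesterol synthesis (17), monoamine signalling (10), activity-dependent genes (17) and the circadian clock (12). Their median differences ranged from -0.26 for chromatin to 0.23 for the clock. Dnmt1, the maintenance DNA methyltransferase, read 449, 272, 286, 390.4 and 649.6 at P7 and 141, 117, 48.7, 89.8 and 87.3 at P14. The groups did not overlap, yet the difference of -2.09 ± 0.63 missed the threshold (adjusted p = 0.0888). Hdac9, a histone deacetylase, differed by 1.05 ± 0.28 (adjusted p = 0.0548) and Dnaja1, a heat-shock co-chaperone, by -1.59 ± 0.48 (adjusted p = 0.0887). Bdnf, a neurotrophin, differed by 0.36 ± 0.21 (adjusted p = 0.427). Markers of endothelial and mural cells (13) and of meninges and fibroblasts (11) held 0 calls, and Col1a2, a fibrillar collagen, differed by -1.63 ± 0.53 (adjusted p = 0.121).

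**Figure D4:**
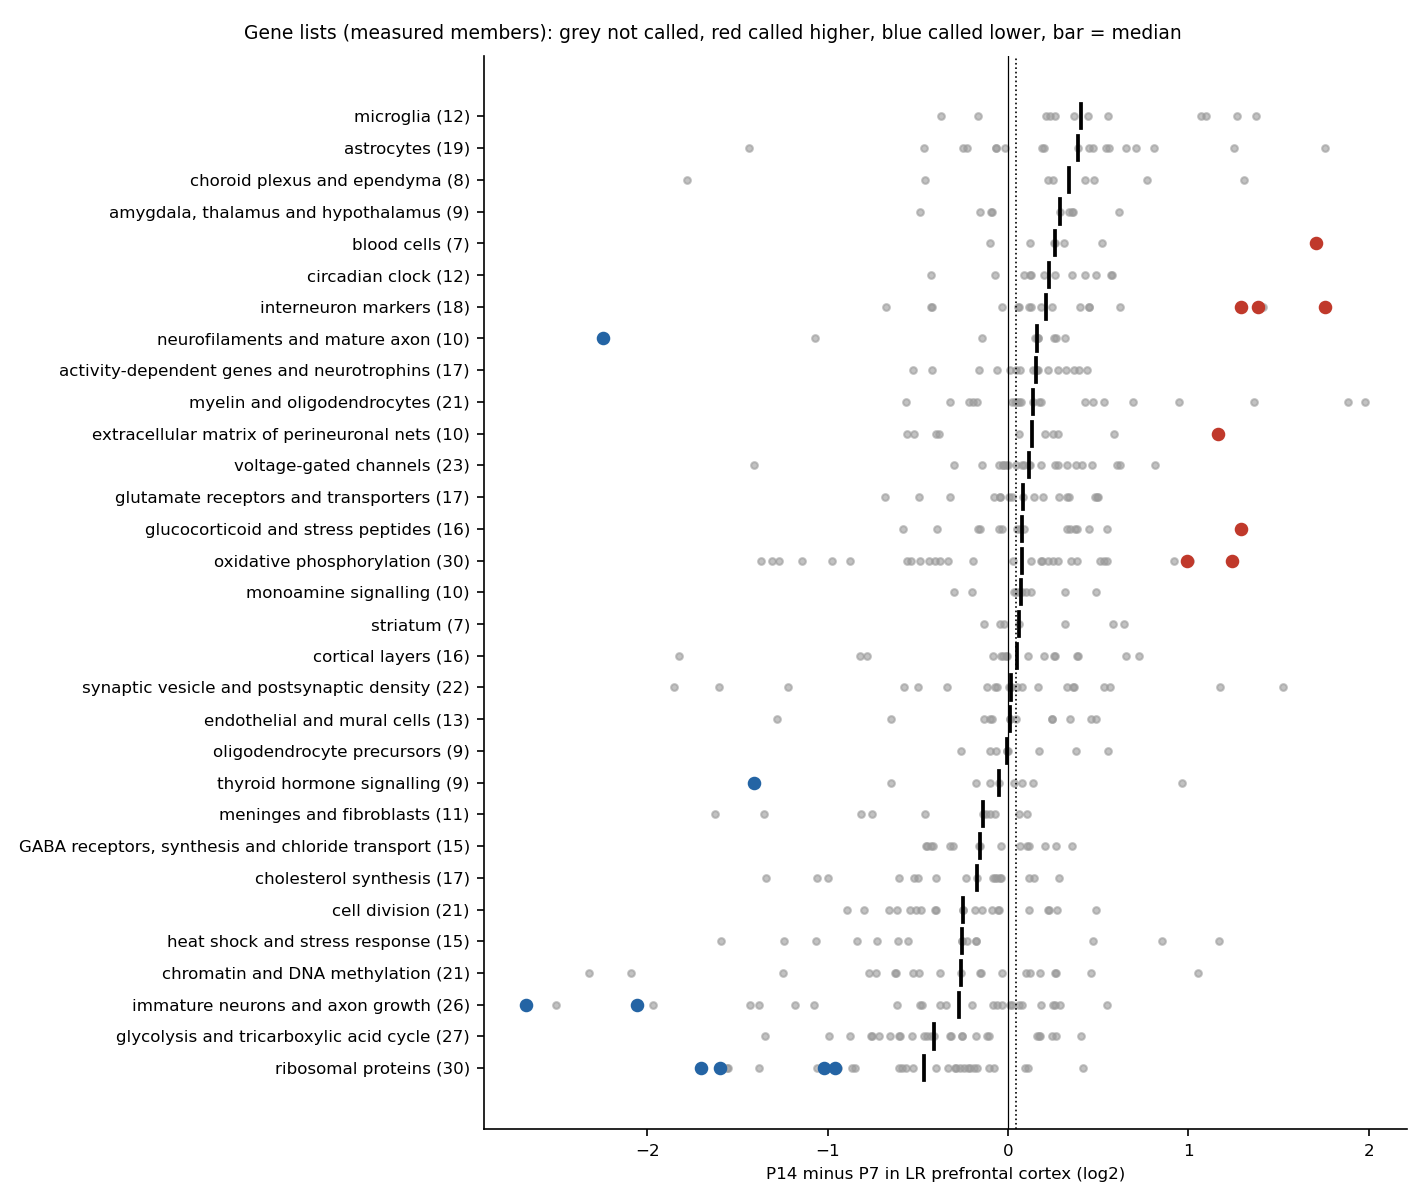
P14 minus P7 difference (log2) in LR prefrontal cortex of each measured member of 31 gene lists, 1 row per gene, with the number measured in brackets; black bars are list medians and the dotted line the median of all rows (0.04). The 4 called ribosomal genes and the 2 called genes of immature neurons lie to the left, and the 3 called interneuron markers to the right.

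In the same step in HR rats, measured on other arrays, 51 rows were called (0.275%), 26 higher and 25 lower. That count was 16 without array 24, 21 without array 25, 22 without array 13, 29 without array 23, 89 without array 21 and 135 without array 22. The number of rows called in both lines was 34, all with the same sign, which is 15.2% of the LR calls and 66.7% of the HR calls. Of the 223 LR rows 207 had the same sign in HR, and the share over all rows was not taken for comparison. The median difference of the rows called higher was 1.27 in LR and 0.70 in HR, and of those called lower -1.68 and -1.14. The rows were chosen by their LR values, so the smaller HR medians are a description and no test. The difference between the steps was tested for every row, and 0 rows (0%) were called (limma, smallest adjusted p 0.731), with 862 rows at an unadjusted p under 0.05. No difference between the lines in this step was therefore shown for any row.

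Among the named genes the steps were close for some peptides and less close for others. Cort differed by 3.73 ± 0.44 in HR, with 134 to 375 at P7 and 2359 to 3547 at P14, and the LR step minus the HR step was -0.41 ± 0.62. For Cck the HR difference was 1.36 ± 0.23 and the step difference 0.02 ± 0.33, and for Sst they were 1.56 ± 0.46 and 0.20 ± 0.64. Cartpt had an HR difference of 2.29 ± 0.50 and a step difference of 0.95 ± 0.71, and Crh 0.83 ± 0.23 and 0.46 ± 0.33. None of these step differences passed the test. Stmn1 differed by -3.03 ± 0.55 in HR and Ybx1 by -4.45 ± 0.84, and both were called in HR (adjusted p = 0.00929 and 0.0105). Gap43, which missed the threshold in LR, was called in HR at -3.17 ± 0.66 (adjusted p = 0.0285). Hapln1 had an HR difference of 0.04 ± 0.26, and the step difference of 1.13 ± 0.37 did not pass the test (adjusted p = 0.999). The same held for Or6c6h, with 0.72 ± 0.33 in HR and a step difference of 1.16 ± 0.47 (adjusted p = 0.999).

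**Figure D5:**
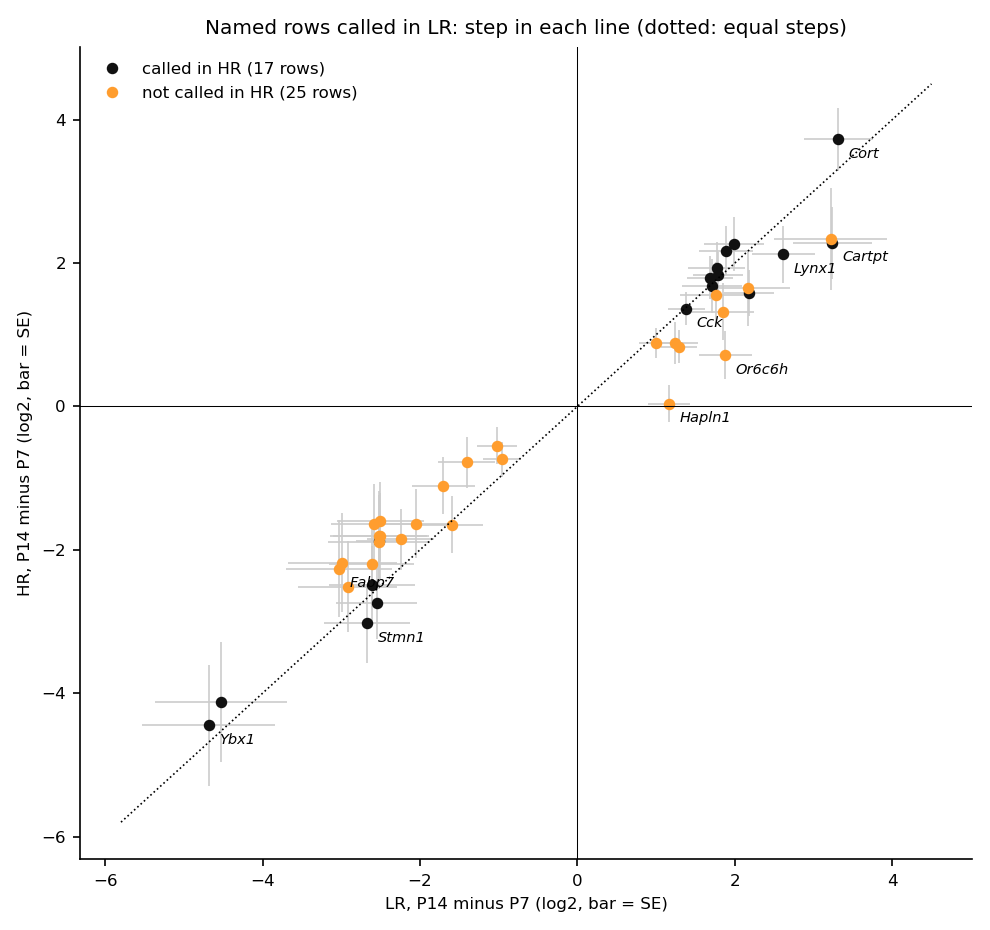
P14 minus P7 difference (log2) of the 42 called LR rows selected by the rule for named genes, with the LR value on the horizontal and the HR value on the vertical axis and bars of 1 SE; black points were also called in HR (17 rows) and orange points were not (25 rows). The points have the same sign in both lines, with Hapln1 near 0 in HR, and 0 rows differed between the lines by the test of the difference.

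Levels at P21, given here as values with no test, placed the P14 values of LR cortex within a longer course. Cort ranged 1494 to 4797 at P21, compared with 747 to 2792 at P14, and Sst 9233 to 27765 compared with 5368 to 11639. Tnnc2 ranged 3478 to 9254 at P21, above all P14 arrays. Cartpt ranged 333 to 979 at P21, below all P14 arrays and overlapping with the P7 arrays. Mobp ranged 5685 to 14225 at P21, above all arrays of the earlier ages. Of the genes that fell, Pafah1b3 ranged 158 to 259 and Ybx1 366 to 895 at P21, still below all P7 arrays.

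In the amygdala of LR rats, whose table was normalized separately and for which no test was made here, 163 of the 220 called rows found in that table had a mean difference of the same sign. Neither the share of all rows with the same sign nor the amygdala median over all rows was taken for comparison. The median amygdala difference was 0.15 for the rows called higher in prefrontal cortex and -0.58 for those called lower. Ybx1 differed by -3.08 in the amygdala, Stmn1 by -1.79 and Pafah1b3 by -1.72. Cort differed by 1.21, Cck by 1.36, Sst by -0.21 and Crh by -0.48, so that the last 2 had the other sign there.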

How the data were processed

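Total RNA from dissected tissue was reverse-transcribed, labelled with Cy3 and hybridised to 1-colour NimbleGen arrays, per the labels' protocols. The authors deposited 1 table of normalized intensity values per region and a table of values for all samples, on a linear scale. The submitters' processing notes name RMA, which corrects background, normalizes by quantiles and summarises probes. Its version, array scans and detection calls are not given in the sources used here, and the 5 arrays per group limit the precision. The prefrontal table has 18565 lines, of which 1 control row was left out. Gene names came through RefSeq accessions from the rat GRCr8 gene table (14334 rows) or, failing that, from the file (3363 rows), and 867 rows have no symbol.

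The values are linear, and log2 was taken before testing. A linear model with 6 groups of line and age was fitted over the 30 prefrontal arrays with limma 3.58.1 in R 4.3.3 (lmFit and eBayes), and p-values were adjusted by Benjamini-Hochberg over 18564 rows. The fit was tested on simulated data. Their noise was independent between rows, with no component shared within an array and no array standing apart. That test therefore cannot tell how the calls fare on arrays such as these. Contrasts were P14 minus P7 in LR, the same in HR, and the difference between them. The named genes are the 15 rises and 15 falls of largest size among called rows with a gene symbol, no overlap between groups and a level at or above the median row, 2 to 4 members per gene list with the smallest p, and all genes of 10 pairs of early and late genes. Lists and pairs use the row of a gene with the highest mean. The members, lists and pairs were chosen with earlier results of these data known. The alternatives were normalization, offset, row filter, samples in the fit, array weights, prior, array run, replicate number and the omission of each array, and the component covariate and the joint omission of arrays 18 and 29 were chosen after seeing the data. Replicate numbers stand only in the labels of the series table. The deviations of LR samples with the same number correlated at -0.06 to 0.13 between the ages, so the numbers were not taken to pair samples. Single results for some of the selected genes are not reported here.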

Additional observations from a re-analysis of the deposited data

Results flagged for a closer look

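Among 212 groups of 5 arrays, which are the LR P7 and P14 values of the named rows, 11 held an array far from the other 4, where chance gives about 1 in 20. The count is near that share, so the cases below are listed as values only. Array 29 at P7 was such an array for 4 genes. Mobp read 3499 there, compared with 262 to 432 on the other arrays, and Mbp 353 compared with 77.5 to 113. Hspb1, a small heat-shock protein, read 219.9 compared with 103 to 109, and Gap43 687 compared with 1274 to 1460.1. Array 18 at P14 was such an array for 3 genes, with Ahsp at 3576 compared with 1390.2 to 1750.4, Dio3 at 166 compared with 78.1 to 90.9, and Rspo2, a Wnt pathway agonist, at 50.6 compared with 66.4 to 74.0. Ybx1 read 17103 on array 26 at P7, above the 9064 to 10597 of the others. On array 27 at P7, Kcnd3, a potassium channel, read 88.6 compared with 42.2 to 50.1, and Dio3 61.2 compared with 43.2 to 47.8. Ppp1r1b, the DARPP-32 phosphoprotein, read 194 on array 19 at P14, compared with 262 to 291.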

How the results depend on the processing

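The count of 223 LR rows stayed within 1.5 times under quantile normalization (300), median centring (221), rows above the median row (307), an offset of 16 before log2 (197), a trended robust prior (174), the series table (223) and the component covariate (270, of which 149 were among the 223). It was 1416 with the LR P7 and P14 arrays alone, 1548 with the 3 LR ages, 960 with array weights, 0 with runs of 12 array numbers as a block, and 52 without arrays 18 and 29. The replicate number as a block, from the series table, gave 130 rows. Leaving out 1 array gave 41 to 308. The balance of directions also changed, from 109 higher and 114 lower. It was 180 and 90 with the component covariate, 78 and 143 with median centring, and 65 and 109 with the trended robust prior. The 51 HR rows became 100 with quantile normalization, 1 with the HR arrays alone, 446 with the array run, 245 with the component covariate, and 16 to 135 without 1 array. The difference between the lines gave 0 rows under all settings but the component covariate (1 row, lower). The cause of these changes was not tested. Of the named genes' results under these settings 2088 stayed on their side of the threshold, 234 lost the call, 96 gained one and 0 changed sign while called. With the array run every named row lost its call, while Ybx1 differed by -4.57 ± 1.66, Mapt by -2.19 ± 0.87 and Cox17 by 1.85 ± 0.64. That block rests on the single HR P7 array in the run of the LR P7 arrays, and runs of 12 are an assumption about how arrays were processed. Files without detection calls set no limit of detection, and a change in rows near the median level could go undetected.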

Other observations

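From the called rows outside the lists, 9 further genes that were higher at P14 were named after their values were seen. They are not all of those rows. None of the 9 kept the call without array 18 (adjusted p 0.0541 for Chchd10 to 0.179 for Scamp5), and each also lost it without 3 or more of the other LR arrays. Chchd10, a protein of mitochondrial cristae, rose by 1.60 ± 0.35 (adjusted p = 0.0185), Ndufs7, a complex I subunit, by 1.06 ± 0.23 (adjusted p = 0.0201), Atp5me, an ATP synthase subunit, by 1.01 ± 0.25 (adjusted p = 0.0421) and Uqcr11, a complex III subunit, by 0.62 ± 0.16 (adjusted p = 0.0457). In HR these 4 differed by 1.58, 1.22, 0.96 and 0.67. Thy1, a surface glycoprotein of mature neurons, read 949, 609.6, 976, 2498 and 794 at P7 and 3525, 2059, 2949, 3072 and 2116 at P14 and rose by 1.39 ± 0.35 (adjusted p = 0.0421). Car7, a carbonic anhydrase of neurons, rose by 1.24 ± 0.29 (adjusted p = 0.0308), Scamp5, a membrane protein of synaptic vesicles, by 1.31 ± 0.34 (adjusted p = 0.0475), Fxyd1, a regulator of the sodium pump, by 1.43 ± 0.36 (adjusted p = 0.0457) and S100a1, a calcium-binding protein, by 1.63 ± 0.39 (adjusted p = 0.0335). Array 29 overlapped with the P14 values of Thy1, Ndufs7, Fxyd1 and Scamp5.

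Further genes called lower at P14 were likewise named after their values were seen, and they are not all of the called rows. Rack1 and Grip1 kept the call without array 18 (adjusted p = 0.0439 and 0.00904) and without each other LR array. Grip1 differed by -1.16 ± 0.22 (adjusted p = 0.00632). The other 9 given here lost the call without array 18 (adjusted p 0.0819 for Eif3f to 0.172 for Vim) and without arrays 20, 26 and 30, each left out alone. Hnrnpk, which binds nuclear RNA, read 934, 722, 660.4, 672 and 809 at P7 and 161, 119, 103, 273 and 172 at P14 (difference -2.27 ± 0.56, adjusted p = 0.0396). Nudt21, of the mRNA 3′-end cleavage complex, differed by -2.46 ± 0.60 (adjusted p = 0.0378), Snrpd3, a core protein of the spliceosome, by -1.91 ± 0.45 (adjusted p = 0.0308), Eif3f, an initiation factor, by -1.68 ± 0.36 (adjusted p = 0.0173), Rack1, a ribosome-bound scaffold, by -1.48 ± 0.29 (adjusted p = 0.00908) and Naca, which binds nascent chains, by -0.95 ± 0.23 (adjusted p = 0.0335). Vim, the intermediate filament of radial glia, read 378, 347, 156, 203 and 453 at P7 and 87.5, 73.8, 50.6, 156 and 102 at P14 (difference -1.70 ± 0.44, adjusted p = 0.0475), with arrays 28 and 19 overlapping. Fabp5, a fatty-acid-binding protein related to Fabp7, differed by -1.32 ± 0.34 (adjusted p = 0.0476), Cks1b, which binds cyclin-dependent kinases, by -1.69 ± 0.37 (adjusted p = 0.0202), and Mthfd2, of mitochondrial folate metabolism, by -1.75 ± 0.40 (adjusted p = 0.0268).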
